A study of Mus musculus with 24 samples.

Results

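The gastrocnemius (GAS), the large and mostly fast-twitch muscle of the calf, was compared between old mice that trained on a treadmill (OE) and old mice that stayed sedentary (OC). The comparison used the 3 libraries labelled as gastrocnemius of old exercised mice, replicates 1, 2 and 3, and the 3 libraries labelled as gastrocnemius of old control mice, replicates 3, 4 and 5. These are 6 of the 24 RNA-seq libraries of the study, which also covered young mice (YE and YC) and the slow-twitch soleus (SOL) of the same animals, and all 18795 genes of the table entered the test. All were male C57BL/6 mice, an inbred laboratory strain, housed singly, with no engineered allele named. OE and OC mice are labelled as 84 weeks old, YE and YC mice as 9 weeks old. After 3 days of adaptation, OE mice ran for 4 weeks in 2 sessions a day on a belt inclined by 6°, each session with 30 min at the set speed, which was 12 m/min in the first week and rose by 2 m/min each week. YE mice had the same training, and OC and YC mice had none. The question was which genes differ after treadmill training in a muscle that has already aged.

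Running recruits calf muscle fibres repeatedly and changes how much of many proteins they make. Endurance training is known for its effects on mitochondria, fatty acid use, blood vessels and the slow fibre programme, while single bouts of exercise induce stress, heat shock and immediate early genes for a short time. Old muscle is known for loss of fibres and of nerve contacts, for raised levels of denervation and p53 target genes, and for low-grade interferon signalling. A whole muscle also holds blood, vessels, fat, nerve and connective tissue, all of which add RNA to a library.

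Expression was given as FPKM, the number of fragments scaled by transcript length and by the mapped fragments of the library. The 6 libraries had total FPKM between 483898 and 516908, and the 10 most abundant genes held 31.7% to 35.6% of it. Defining genes of fast fibres were high in every library. Myh4, the fastest myosin heavy chain, was at 10214 to 12323 FPKM in OE and 10357 to 11788 FPKM in OC, and Ckm, muscle creatine kinase, at 19609 to 22757 FPKM in OE and 18468 to 21680 FPKM in OC. OE replicate 3 stood apart from the others. Its log2 values deviated from the mean of the other 5 libraries by 0.389 (root mean square over genes with a mean FPKM of at least 1), against 0.198 to 0.266 in each of the others, and its deviation had a median of 0.15 in the third of genes with the shortest transcripts and -0.01 in the third with the longest. Values without this library are therefore given where a result turned on it. The depth in reads is unknown, so no counting interval can be given. Nothing in the labels says that replicates were processed separately after collection, and p-values measure the spread between these libraries.

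Training was followed by few differences that passed a test over all genes. With limma on the normalized log2(FPKM + 1) values, 3 genes passed an adjusted p of 0.05 in OE/OC, which is 0.016% of the genes tested, and all 3 fell: Hba-a2, Cdc27 and Ppp1r36. The fit borrowed the spread of all 12 gastrocnemius libraries. With the 6 libraries compared alone, limma called 0 genes, with 474 higher and 245 lower at an unadjusted p under 0.05. An equal-variance test of each gene also called 0, with 397 higher and 195 lower at an unadjusted p under 0.05. Leaving out 1 library at a time gave 9 calls without OE replicate 1, 5 without OE replicate 2, 6 without OE replicate 3, 13 without OC replicate 3, 11 without OC replicate 4 and 7 without OC replicate 5. Hba-a2 and Ppp1r36 were among the calls each time, and Cdc27 was not without OE replicate 2, OE replicate 3 or OC replicate 5.

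A looser call, a differentially expressed gene (DEG), asked of a gene that its fold change be over 1.5 at an unadjusted limma p under 0.05. There were 30 DEGs in OE/OC, of which 12 were upregulated (0.0638% of the genes tested) and 18 were downregulated (0.0958%). The normalized values of OE and OC did not overlap for 25 of them. The count was 104 without OE replicate 1 and 69 without OE replicate 2. At an unadjusted p under 0.05 alone, 556 genes were higher in OE (2.96%) and 320 were lower (1.7%), and outside the 3 genes above the adjusted p was 0.128 or more. Among the 10416 genes with a mean FPKM of at least 1, these were 355 genes (3.41%) and 163 genes (1.56%), and the groups were apart with OE higher for 597 genes (5.73%) and with OE lower for 309 genes (2.97%). The balance between the directions rested on the normalization. 63.5% of the 876 genes at an unadjusted p under 0.05 were higher in OE, against 24.9% without quantile normalization, where 218 were higher and 659 lower. The median log2 fold change of genes with a mean FPKM of at least 1 was 0.02 with quantile normalization and -0.05 without it.

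The largest differences were in haemoglobin genes, and in opposite directions between gene copies. Alpha-globin and beta-globin are the protein chains of adult haemoglobin, made in red cell precursors and carried in blood as RNA in young red cells. The mouse has a pair of alpha-globin genes, Hba-a1 and Hba-a2, on chromosome 11. By the GENCODE M21 coding sequences they differ at 1 of 429 coding bases (99.8% identity), at position 381 counted from the first coding base, and share an unbroken run of 380 bases. The stretch around that base is shown because it holds the only coding letter by which a read can be assigned to a copy, and the capital marks it. The lines give Hba-a1 at chr11:32284303-32284383 and Hba-a2 at chr11:32297120-32297200, both on the plus strand of GRCm38.
Hba-a1: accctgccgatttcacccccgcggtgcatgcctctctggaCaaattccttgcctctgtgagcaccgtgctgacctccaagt
Hba-a2: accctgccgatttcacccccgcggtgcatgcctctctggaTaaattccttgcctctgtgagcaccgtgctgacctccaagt

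Hba-a2 was at 0.226, 0.128 and 0.120 FPKM in OE replicates 1, 2 and 3, against 43.1, 179.7 and 137 FPKM in OC replicates 3, 4 and 5. It fell, with a log2 fold change of -6.40 (SE 0.45, limma adjusted p = 0.0017), and the groups did not overlap. Hba-a1 was at 81.7, 55.6 and 48.1 FPKM in OE, against 0, 2.79 and 4.13 FPKM in OC. It was an upregulated DEG with a log2 fold change of 4.49 (SE 1.24). Every OE library thus held nearly all of its alpha-globin signal in Hba-a1 and every OC library in Hba-a2. How reads were divided between the copies before deposit is not given in the sources used here.

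The adult beta-globin copies also differed in opposite directions. Hbb-bs was at 82.1, 56.3 and 46.3 FPKM in OE, against 0, 0.577 and 0.537 FPKM in OC, and was an upregulated DEG with a log2 fold change of 5.52 (SE 2.1). Hbb-b1 was at 0.159, 0.119 and 0.120 FPKM in OE, against 40.4, 189 and 135 FPKM in OC, and was a downregulated DEG with a log2 fold change of -6.42 (SE 1.78). The groups did not overlap for either copy. Hbb-b2 was at 34.1, 13.2 and 11.1 FPKM in OE and 16.7, 79.6 and 58.2 FPKM in OC, and Hbb-bt at 0, 10.5 and 9.33 FPKM in OE and 0, 0.355 and 0.309 FPKM in OC, and both copies overlapped between the groups. Hbb-bs and Hbb-bt lie on the minus strand of chromosome 7 and differ at 1 of 444 coding bases, at position 417, again marked by a capital. The lines give Hbb-bs at chr7:103826665-103826732 and Hbb-bt at chr7:103812656-103812723 of GRCm38, from GENCODE M21, and show how little separates Hbb-bs from Hbb-bt. Hbb-b1 and Hbb-b2 are annotated on an alternate sequence of the locus and their positions are not given. Their coding sequences were not compared with those of Hbb-bs and Hbb-bt. Whether these mice carry Hbb-b1 and Hbb-b2 beside Hbb-bs and Hbb-bt was not tested. A shift of signal between these names need not be a change in expression.
Hbb-bs: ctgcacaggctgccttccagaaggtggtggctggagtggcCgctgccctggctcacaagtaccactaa
Hbb-bt: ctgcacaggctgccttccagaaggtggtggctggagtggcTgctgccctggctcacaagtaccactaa

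**Figure D1:**
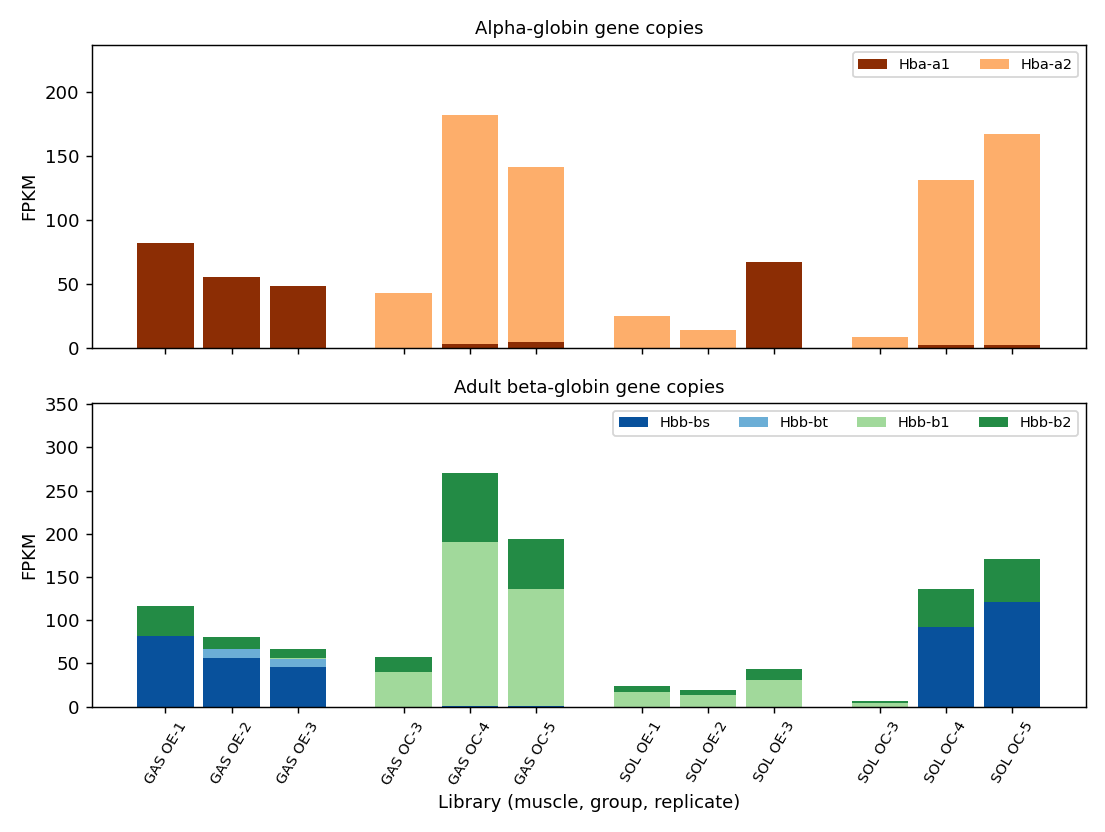
FPKM (vertical axis) of the alpha-globin copies (upper panel) and adult beta-globin copies (lower panel) in each library of old mice, stacked by copy, with GAS OE and GAS OC left of SOL OE and SOL OC. Hba-a1 fills the GAS OE bars and Hba-a2 the GAS OC bars of alpha-globin, and the largest beta-globin copy is Hbb-bs in GAS OE (69.3% to 70.5%) and Hbb-b1 in GAS OC (69.6% to 70.7%), while the bar heights of the groups overlap.

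Summed over the copies, the globins did not separate the groups. Alpha-globin came to 62 ± 17.7 FPKM in OE (48.2 to 81.9) and 122 ± 71.6 FPKM in OC (43.1 to 182), with SD over 3 libraries each. The difference of the mean log2 sums was -0.78, with p = 0.4 in a two-sided exact permutation test, where 3 against 3 libraries cannot go below 0.1. Adult beta-globin came to 87.8 ± 25.6 FPKM in OE (66.8 to 116) and 174 ± 108 FPKM in OC (57.1 to 270), a difference of -0.75 with p = 0.4 in the same exact test. OC replicate 3 was the low library of its group, and its sums lay below every OE sum. Without it the differences were -1.41 and -1.42. This library was singled out by these same sums, so a test without it would decide nothing and no p-value is given. In bulk tissue fewer cells of a type and less RNA per cell cannot be told apart. Alas2, the first enzyme of haem synthesis in red cell precursors, was at 1.24, 0.463 and 0.345 FPKM in OE and 0.352, 1.78 and 1.59 FPKM in OC, and Slc4a1, the anion exchanger of red cells, was at 0 to 0.0139 FPKM in OE and 0 to 0.0173 FPKM in OC.

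Which globin copy held the largest share varied across the series. A single alpha-globin copy held over 90% of the family's FPKM in 23 of the 24 libraries, Hba-a1 in 9 and Hba-a2 in 14. Hbb-b1 was the leading beta-globin copy in 15 libraries and Hbb-bs in 9, and each held over 90% in 0 libraries. In the soleus of the same old mice, Hba-a1 and Hba-a2 were at 0 and 24.9 FPKM in OE replicate 1, 0 and 14.0 FPKM in OE replicate 2, and 67.0 and 0.133 FPKM in OE replicate 3, so the leading copy differed between the muscles for OE numbers 1 and 2. In SOL OC, Hba-a2 led in all 3 libraries. Hbb-b1 was at 16.6, 13.3 and 31.2 FPKM in SOL OE, against 4.20, 0.130 and 0.224 FPKM in SOL OC, the opposite order from GAS. The part of read assignment in these differences was not tested.

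Cdc27 was the only other gene past an adjusted p of 0.05 with a mean FPKM over 1, and it fell. It encodes a subunit of the anaphase-promoting complex, the ubiquitin ligase that marks cyclins and other cell cycle proteins for degradation, and lies on chromosome 11 from 104502524 to 104550620 (GRCm38.p6). Cdc27 was at 2.45, 2.25 and 1.86 FPKM in OE (2.19 ± 0.297, SD), against 4.26, 4.89 and 5.20 FPKM in OC (4.79 ± 0.479, SD). The log2 fold change was -0.78 (SE 0.08, limma adjusted p = 0.0197). The adjusted p was 0.0783 without OE replicate 2, 0.0533 without OE replicate 3 and 0.0525 without OC replicate 5. The 3 OE values were the lowest in the series, since the 18 libraries of the other 6 groups ran from 4.01 to 5.92 FPKM.

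The other subunits of the complex had values on both sides. Among the 24 genes of the cell cycle and anaphase-promoting complex, 1 was higher (Anapc13) and 2 were lower (Cdc27 and Anapc10) at an unadjusted p under 0.05 (4.17% and 8.33%, against 3.41% and 1.56% of all genes with a mean FPKM of at least 1), and the median log2 fold change was -0.01. The small subunit Anapc13 was at 118, 112 and 110.4 FPKM in OE, against 91.0, 96.4 and 86.9 FPKM in OC (log2 fold change 0.33). Anapc10, which helps bind substrates, was at 1.24, 0.845 and 0.554 FPKM in OE and 1.18, 1.52 and 1.3 FPKM in OC (-0.30). The groups did not overlap for Anapc13 and overlapped for Anapc10. Anapc4, Cdc16, Anapc7, Anapc2, Cdc23, Anapc1, Anapc5 and Anapc11 had log2 fold changes from -0.10 to 0.14. Cdkn1a, the cyclin-dependent kinase inhibitor p21 and a p53 target, was at 8.00, 7.37 and 9.27 FPKM in OE, against 13.8, 13.1 and 17.8 FPKM in OC. Its groups were apart, but its log2 fold change of -0.67 (SE 0.35) did not pass an unadjusted p of 0.05.

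Ppp1r36, annotated as a regulatory subunit of protein phosphatase 1, passed the test at a level near 0. It was listed at 0 in all 3 OE libraries, against 0.05, 0.0503 and 0.0543 FPKM in OC, and at 0 in the other 18 libraries of the series (limma adjusted p = 0.0017). No fold is given against a group listed at 0.

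Chaperones of the endoplasmic reticulum, which fold secreted and membrane proteins and are induced by the unfolded protein response, were mostly lower in OE. Of 28 genes, 22 had a negative log2 fold change, 4 were lower at an unadjusted p under 0.05 (14.3% of the list, against 1.56% of all genes with a mean FPKM of at least 1) and 0 were higher, with a median of -0.09. Canx, calnexin, the membrane chaperone of newly made glycoproteins, had the smallest p of them and lies on chromosome 11. It was at 13.5, 12.6 and 11.7 FPKM in OE (12.6 ± 0.923, SD), against 23.1, 22 and 23.3 FPKM in OC (22.8 ± 0.689, SD). Its groups were far apart relative to their spread, and it was a downregulated DEG with a log2 fold change of -0.70 (SE 0.12, limma adjusted p = 0.484). The OC level was above both young groups of the same muscle, GAS YE at 16.4 to 19.3 FPKM and GAS YC at 12.2 to 16.8 FPKM, and OE overlapped GAS YC only. All 12 SOL libraries were higher, at 31.9 to 42.1 FPKM.

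Hspa5, the main luminal chaperone BiP, was at 61.3, 72.2 and 46.9 FPKM in OE and 85.7, 71.1 and 88.7 FPKM in OC (log2 fold change -0.39). Pdia3, the disulfide isomerase that works beside calnexin, was at 14.0, 14.8 and 8.08 FPKM in OE and 17.4, 16.8 and 17.1 FPKM in OC (-0.39). Xbp1, a transcription factor of the unfolded protein response, was at 17.4, 24.9 and 19.5 FPKM in OE and 28.5, 24.2 and 32.7 FPKM in OC (-0.37). OE and OC overlapped for Hspa5 and Xbp1 and were apart for Pdia3, in which OE replicate 3 was the lowest library. Without OE replicate 3, 2 genes of the list were lower at an unadjusted p under 0.05 (against 2.17% of all such genes) and the median was -0.12. Without quantile normalization 8 were lower (against 4.14% of all genes with a mean FPKM of at least 1 in that setting) and the median was -0.16, beside a shift of -0.05 in all genes with a mean FPKM of at least 1.

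Promoters of these chaperones are known to carry the endoplasmic reticulum stress element, a pair of short boxes bound by NF-Y and ATF6. The element was searched as CCAAT and CCACG with 9 bases between them, on both strands in the RefSeq promoters of GRCm38.p6, from 250 bases before to 50 after each gene start. It was in 8 of the 23 promoters found for the list and in 39 of all 32851 promoters (0.119%). The 8 genes were Hspa5, Hsp90b1, Canx, Calr, Pdia6, Dnajc3, Syvn1 and Creld2, of which 7 had a negative log2 fold change and 2 (Canx and Hspa5) were lower at an unadjusted p under 0.05, in a range from -0.70 to 0.02. The copies in Hspa5 (chr2:34772000-34772068, plus strand) and Canx (chr11:50325775-50325843, minus strand) are shown because these were the 2 with the lowest p, with the element in capitals.
Hspa5: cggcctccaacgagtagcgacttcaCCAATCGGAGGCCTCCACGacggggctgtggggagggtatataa
Canx: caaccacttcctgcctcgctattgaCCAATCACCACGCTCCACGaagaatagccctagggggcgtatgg

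Cytosolic heat shock genes leaned the same way without passing the test. Of 18 genes, 16 had a negative log2 fold change, with a median of -0.22, and 0 were past an unadjusted p of 0.05 in either direction. Hspb1, a small heat shock protein of the sarcomere and cytoskeleton, was at 149, 138 and 187 FPKM in OE and 368, 204 and 151 FPKM in OC. Hspa8, the constitutive Hsp70, was at 529.9, 441 and 437 FPKM in OE and 525, 551 and 485 FPKM in OC. FPKM overlapped between OE and OC in both genes, and OC replicate 3 carried the highest Hspb1. Immediate early genes had 9 positive and 15 negative values and a median of -0.06. Atf3, a stress-induced transcription factor, was at 2.75, 1.76 and 1.16 FPKM in OE and 6.39, 4.16 and 2.24 FPKM in OC (log2 fold change -0.74, SE 0.33). Fosl1, an AP-1 subunit, was listed at 0 in all 3 OE libraries and at 0.085, 0.381 and 0.230 FPKM in OC. It was the 1 gene of this list past an unadjusted p of 0.05 (4.17%, against 1.56% of genes with a mean FPKM of at least 1), and 4 were lower without quantile normalization (against 4.14%).

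Chtop, a factor that binds the arginine methyltransferase PRMT1 and the TREX complex of mRNA export, was the upregulated DEG with the clearest gap outside the globins. It was at 31.2, 30.6 and 24.1 FPKM in OE (28.6 ± 3.93, SD), against 13.1, 12.7 and 12.2 FPKM in OC (12.7 ± 0.489, SD), with a log2 fold change of 1.14 (SE 0.28, limma adjusted p = 0.939). Across the series Chtop took a low or a high level with nothing between. In 10 libraries it was at 12.2 to 17 FPKM and in the other 14 at 24.1 to 35.8 FPKM. Both levels occurred within a group: the 3 sedentary young GAS libraries ran from 12.8 to 32.6 FPKM. In the soleus of old mice the order was the opposite, with OE at 16.8, 17 and 15.4 FPKM and OC at 31.8, 35.0 and 33 FPKM. Among 22 genes of mRNA export and splicing 8 values were positive and 14 negative (4 and 18 without quantile normalization), 1 was higher (Chtop itself) and 1 lower (Srsf2, an SR splicing factor, -0.16) at an unadjusted p under 0.05, which is 4.55% each, against 3.41% and 1.56% of genes with a mean FPKM of at least 1.

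**Figure D2:**
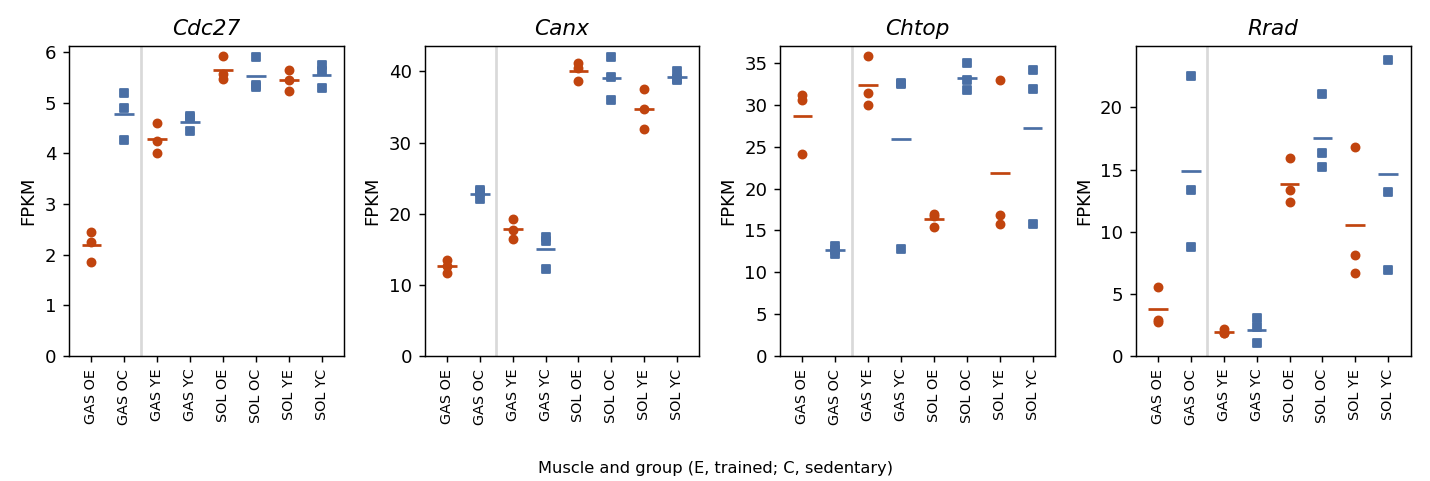
FPKM of Cdc27, Canx, Chtop and Rrad in each library of the 8 groups, by muscle (GAS, SOL) and group, with trained groups as circles, sedentary groups as squares and means as bars. Cdc27 is low only in GAS OE, Canx is highest in SOL, Chtop falls on a low or a high level within several groups, and Rrad in GAS OC lies in the range of SOL.

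Other upregulated DEGs had smaller differences than Chtop or wider spread. Otub2, a deubiquitinating enzyme, was at 10.5, 14.7 and 13.0 FPKM in OE, against 8.28, 8.25 and 5.35 FPKM in OC (log2 fold change 0.79, SE 0.19). Nmrk2, the muscle nicotinamide riboside kinase that feeds NAD synthesis, was at 36.7, 46.7 and 43.3 FPKM in OE, against 10.3, 29.6 and 11.3 FPKM in OC (1.42, SE 0.53). Both had groups that did not overlap. In young GAS, Nmrk2 had a log2 fold change of 1.5 in YE/YC, and in old SOL -0.49 in OE/OC.

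Kcnf1, a modulatory potassium channel subunit, was at 5.31, 5.67 and 5.61 FPKM in OE, against 4.98, 1.25 and 2.63 FPKM in OC (log2 fold change 0.91). Slc25a30, a mitochondrial carrier, was at 7.80, 8.19 and 6.38 FPKM in OE, against 4.91, 4.10 and 5.22 FPKM in OC (0.61, SE 0.26). The OE values of Kcnf1 were close together, whereas OC replicate 3 nearly reached them. Myl4, the myosin light chain of embryonic muscle and atrium, was at 7.44, 7.21 and 17.5 FPKM in OE, against 4.06, 6.20 and 6.93 FPKM in OC (0.75). OE replicate 3 stood alone in Myl4. Its annotated span on chromosome 11, from 104546017 to 104587215, overlaps that of Cdc27, the libraries came from a stranded kit, and whether counting used the strand is not given in the sources used here, so the part of shared reads was not tested.

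Gm12191, a transcribed pseudogene, was at 6.43, 4.51 and 22.7 FPKM in OE, against 0.780, 2.73 and 0.600 FPKM in OC (log2 fold change 2.22). Pnpla3, a lipid droplet protein with lipase activity, was at 1.82, 3.01 and 2.1 FPKM in OE, against 0.954, 1.18 and 1.21 FPKM in OC (0.74, SE 0.37). Its groups were apart, but it did not pass an unadjusted p of 0.05. Sult5a1, a sulfotransferase, had the smallest p of all genes with higher values in OE. It was at 3.39, 3.61 and 3.01 FPKM in OE, against 2.18, 1.95 and 2.06 FPKM in OC (0.57, SE 0.07, limma adjusted p = 0.128), and its adjusted p was 0.02 without OC replicate 3.

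**Figure D3:**
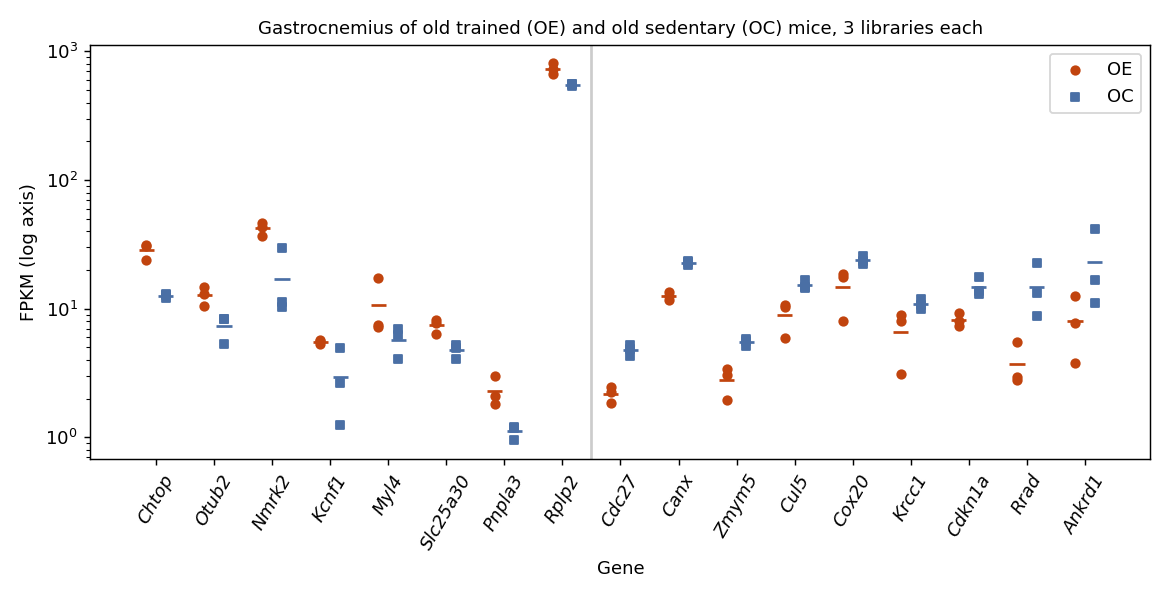
FPKM on a log axis in the 3 OE libraries (circles) and 3 OC libraries (squares) of old gastrocnemius, with group means as bars, for genes with higher means in OE (left of the line) and lower means in OE (right of it). Points of Chtop, Canx and Cdc27 are tight within each group and apart between them, while Nmrk2, Rrad and Ankrd1 vary widely in OC.

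Of the downregulated DEGs outside the globins, Rrad had the smallest p after Cdc27 and Canx. It encodes a small GTPase that holds back voltage-gated calcium channels and is induced in damaged and denervated muscle, and was at 5.55, 2.78 and 2.92 FPKM in OE, against 8.75, 22.5 and 13.4 FPKM in OC. Its log2 fold change was -1.56 (SE 0.33, limma adjusted p = 0.743) and the groups did not overlap. Rrad was at 1.83 to 2.16 FPKM in GAS YE and 1.03 to 3.04 FPKM in GAS YC, so the OE values lay nearer to the young mice than the OC values did. In SOL it was at 12.4 to 15.9 FPKM in OE and 15.2 to 21.1 FPKM in OC.

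Cul5, a cullin scaffold of ubiquitin ligases, was at 10.3, 10.8 and 5.93 FPKM in OE, against 14.5, 14.7 and 16.8 FPKM in OC (log2 fold change -0.63). Zmym5, a zinc finger protein, was at 3.42, 3.04 and 1.94 FPKM in OE, against 5.15, 5.61 and 5.82 FPKM in OC (-0.70). Cox20, an assembly factor of cytochrome c oxidase, was at 17.6, 18.6 and 8.03 FPKM in OE, against 23.5, 22.2 and 25.5 FPKM in OC (-0.62). OE replicate 3 was the lowest library for each of these genes, and the groups were apart also in the other OE libraries. Krcc1 was at 8.88, 7.99 and 3.09 FPKM in OE, against 9.95, 11.9 and 10.7 FPKM in OC (-0.62). Gm13363, a transcribed pseudogene, was listed at 0 in OE replicates 1 and 3 and at 8.37 FPKM in OE replicate 2, against 9.72, 9.46 and 11.8 FPKM in OC. Here OE replicate 2 came close to the OC libraries.

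Of 24 genes of denervation and atrophy, 12 had positive and 12 negative log2 fold changes (median -0.01), with 2 higher and 3 lower at an unadjusted p under 0.05 (8.33% and 12.5%, against 3.41% and 1.56% of genes with a mean FPKM of at least 1). The balance rested on the setting, with 1 higher, 4 lower and a median of -0.10 without OE replicate 3, and 0 higher, 5 lower and 16 of 24 values negative without quantile normalization. Besides Rrad, the lower ones were Runx1 and Ankrd1. Runx1, a transcription factor known to be induced in denervated muscle, was at 0.396, 0.423 and 0.408 FPKM in OE, against 0.540, 1.27 and 0.881 FPKM in OC (-0.39, SE 0.10). Ankrd1, a stretch-responsive protein that binds titin, was at 7.77, 3.78 and 12.6 FPKM in OE and 41.7, 16.6 and 11.1 FPKM in OC (-1.20), and its groups overlapped. Musk, the receptor kinase that gathers acetylcholine receptors at the nerve contact, was at 8.72, 9.26 and 7.80 FPKM in OE and 7.49, 7.64 and 7.92 FPKM in OC (0.21, SE 0.09).

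Circadian clock genes had 6 positive and 13 negative values, with a median of -0.07, and 1 was higher and 1 lower at an unadjusted p under 0.05 (5.26% each, against 3.41% and 1.56% of genes with a mean FPKM of at least 1). Arntl, which encodes the activator BMAL1, was at 4.61, 6.54 and 3.97 FPKM in OE, against 3.91, 4.12 and 3.17 FPKM in OC (log2 fold change 0.40, SE 0.14). Dbp, an output transcription factor driven by BMAL1 and CLOCK, was at 29.4, 25.9 and 37.8 FPKM in OE, against 47.9, 39.0 and 46.8 FPKM in OC (-0.44, SE 0.14). Both passed an unadjusted p of 0.05, Arntl with its FPKM overlapping between the groups and Dbp with its FPKM apart. Ciart, a repressor of the clock, was at 1.76, 1.85 and 2.88 FPKM in OE, against 4.38, 3.5 and 3.45 FPKM in OC (-0.53, SE 0.24). Per3, of the period repressor family, was at 5.35, 4.46 and 5.43 FPKM in OE and 5.77, 6.31 and 7.36 FPKM in OC (-0.21). Without OE replicate 3, 1 clock gene was higher and 4 were lower at an unadjusted p under 0.05, against 2.66% and 2.17% of all genes with a mean FPKM of at least 1 in that setting.

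The soleus of the same old mice gave log2 fold changes of 0.56 for Arntl, -0.65 for Dbp, -0.80 for Ciart and -0.32 for Per3 in OE/OC, the same directions as GAS. In young GAS, YE/YC gave -0.54 for Arntl, 0.01 for Dbp, -0.85 for Ciart and 0.21 for Per3. The hour at which each muscle was taken is not given in the sources used here, and its part in these values was not tested. The E-box CACGTG, the letters known to be bound by BMAL1 and CLOCK, was in 4 of the 16 promoters found for the list and in 2349 of all 32851 promoters (7.15%), searched on both strands. The 4 genes were Cry1, Tef, Ciart and Bhlhe41, and Dbp, Per3 and Arntl were not among them. Of the 4, 3 had a negative log2 fold change and 0 were lower at an unadjusted limma p under 0.05, in a range from -0.53 to 0.10. Ciart held 3 copies, shown in capitals because it had the lowest log2 fold change of the list (chr3:95882242-95882369, minus strand, RefSeq, GRCm38.p6).
Ciart: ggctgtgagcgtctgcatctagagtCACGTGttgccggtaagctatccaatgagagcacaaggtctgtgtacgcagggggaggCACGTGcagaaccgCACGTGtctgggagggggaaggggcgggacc

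Cytosolic ribosomal protein genes were slightly higher in OE. Of 55 genes, 42 had positive values, 8 were higher at an unadjusted p under 0.05 (14.5%, against 3.41% of all genes with a mean FPKM of at least 1) and 0 were lower, and the median was 0.03. Rplp2, an acidic protein of the ribosomal stalk, was at 805, 671 and 724 FPKM in OE, against 557, 556 and 536 FPKM in OC (log2 fold change 0.42, SE 0.08). Rpl10a and Rpl32, of the large subunit, had log2 fold changes of 0.18 and 0.16. The count rested on the normalization, since 1 gene was higher (against 0.806% of all genes with a mean FPKM of at least 1 in that setting) and 0 lower without quantile normalization, at a median of 0.05. Ribosomal protein transcripts are short, the class in which OE replicate 3 deviated upward. Without that library 10 genes were higher and 1 was lower (against 2.66% and 2.17%) and the median was 0.03. Rps27, named after its values were seen, was at 239, 1.41 and 330.2 FPKM in OE and 1.58, 1.3 and 1.05 FPKM in OC. In young GAS both levels occurred in each group, at 1.23, 281 and 323 FPKM in YE and 1.45, 269 and 235 FPKM in YC. In SOL it was at 109 to 175 FPKM in all libraries except YE replicate 1, at 1.40 FPKM. Its log2 fold change in GAS was 4.53 (SE 2.58) and did not pass an unadjusted p of 0.05.

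Interferon-induced genes, the antiviral programme switched on by type I interferon, had 33 positive values among 35 and a median of 0.14. Of these, 1 was higher at an unadjusted p under 0.05 (2.86%, against 3.41% of all genes with a mean FPKM of at least 1), and the groups were apart with OE higher for 6 (17.1%, against 5.73%). Irf7, a transcription factor that amplifies the response, was at 1.93, 2.97 and 1.54 FPKM in OE and 1.33, 1.64 and 1.28 FPKM in OC (log2 fold change 0.44, SE 0.15). Isg15, Oasl2 and Rsad2, effectors of the response, had log2 fold changes of 0.46, 0.43 and 0.38 and did not pass it. OE replicate 2 was the highest library for Irf7, Isg15, Oasl2 and Rsad2 alike. The list median was 0.09 without OE replicate 2 and 0.08 without quantile normalization, with 28 positive values.

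**Figure D4:**
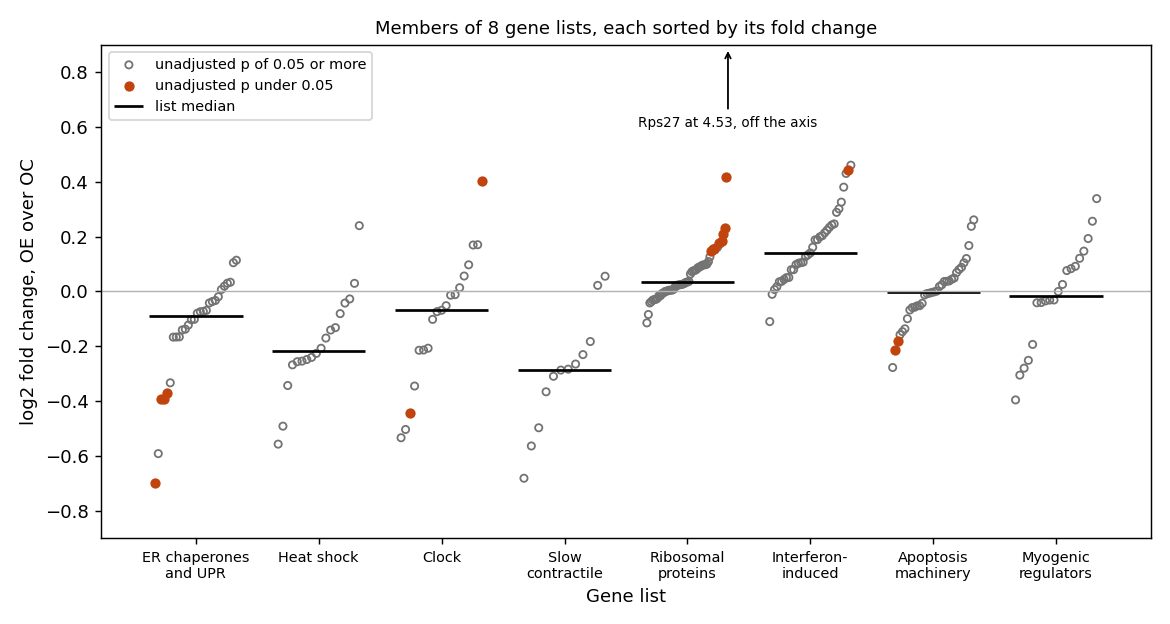
log2 fold change of OE over OC for each member of 8 gene lists, sorted within its list, with filled points at an unadjusted p under 0.05 and bars at the list median. Most endoplasmic reticulum, heat shock and slow contractile genes lie under 0 and most interferon-induced genes over it, with medians of -0.09, -0.22, -0.28 and 0.14.

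The core apoptosis machinery had 16 positive and 18 negative values and a median of -0.002, with 0 genes higher and 2 lower at an unadjusted p under 0.05 (5.88% lower, against 1.56% of genes with a mean FPKM of at least 1). Without quantile normalization 9 values were positive and 25 negative. Fadd, the adaptor of death receptors, was at 1.15, 1.42 and 1.36 FPKM in OE, against 1.68, 1.81 and 1.82 FPKM in OC (log2 fold change -0.21, SE 0.07). Mcl1, an anti-apoptotic BCL2 relative, was at 39.2, 36.5 and 30.7 FPKM in OE, against 43.3, 39.7 and 43.7 FPKM in OC (-0.18, SE 0.06). Fadd promotes and Mcl1 restrains cell death, and OE and OC were apart in both genes. Casp8 and Tradd, which signal death from receptors, had log2 fold changes of 0.24 and 0.26. Of 20 p53 targets 14 values were negative and 0 passed an unadjusted p of 0.05, and without quantile normalization 17 were negative and 3 were lower (against 4.14% of genes with a mean FPKM of at least 1). Gadd45a, a growth arrest gene, was at 17.2, 16.7 and 19.1 FPKM in OE and 17.2, 40.1 and 27.0 FPKM in OC.

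Of the myogenic regulators, 20 were measured, with 10 positive and 10 negative values and 0 past an unadjusted p of 0.05. Myf6, the regulator most expressed in mature fibres, was at 40.2, 53.9 and 41.1 FPKM in OE, against 56.5, 64.4 and 65.3 FPKM in OC (log2 fold change -0.40, SE 0.22), with groups that did not overlap. Pax7, the marker of satellite cells, had 0.15 and Cdh15, a cadherin of satellite cells, 0.12.

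Slow fibre genes varied more between libraries than between groups. The 12 slow contractile genes had 10 negative values and a median of -0.28, with 0 past an unadjusted p of 0.05. Myh7, the slow myosin heavy chain, was at 168, 6.22 and 89.2 FPKM in OE and 54.3, 66.1 and 94.9 FPKM in OC, and Tnnc1, slow troponin C, at 270.1, 9.33 and 138 FPKM in OE and 95.0, 101 and 142 FPKM in OC. OE replicate 2 had the lowest slow fibre signal of the 6 libraries and OE replicate 1 the highest. Without OE replicate 2 the log2 fold change of Myh7 was 0.82 and that of Tnnc1 0.79, against -0.50 and -0.56 with it, and the list median was 0.47. Fast contractile genes had a median of 0. Quantile normalization gives genes of the same rank the same value in every library. The most abundant muscle genes, such as Ckm, were thereby held at 0, so this median decides nothing. Without quantile normalization 10 fast contractile genes were positive and 3 negative, with a median of 0.09. The median of all genes with a mean FPKM of at least 1 was -0.05 in that setting.

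Metabolic lists were sensitive to the same library. Of 29 genes of fatty acid uptake and oxidation 22 values were negative, with a median of -0.14, or 0.03 without OE replicate 2, and 0 passed an unadjusted p of 0.05. Fabp3, which carries fatty acids in muscle, was at 887, 377 and 796 FPKM in OE and 881, 1256 and 1030 FPKM in OC. Of 30 nuclear genes of oxidative phosphorylation 12 were positive and 18 negative (median -0.02). Ndufv2, of complex I, was the 1 past an unadjusted p of 0.05 (log2 fold change -0.35). This is 3.33% of the list, against 1.56% of genes with a mean FPKM of at least 1 that were lower. Without OE replicate 3, 0 genes of the list passed. Lpin1, a phosphatidate phosphatase of triglyceride synthesis, was at 58.0, 26.6 and 33.8 FPKM in OE and 22.7, 26.6 and 28.9 FPKM in OC (0.56, SE 0.24), overlapping. Ppargc1a, the coactivator of mitochondrial biogenesis, had a log2 fold change of 0.17 (SE 0.11) and the related Ppargc1b -0.26 (SE 0.13). Of 15 secreted factors known to respond to exercise, all 15 values were negative, with a median of -0.06, and 0 passed an unadjusted p of 0.05.

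**Figure D5:**
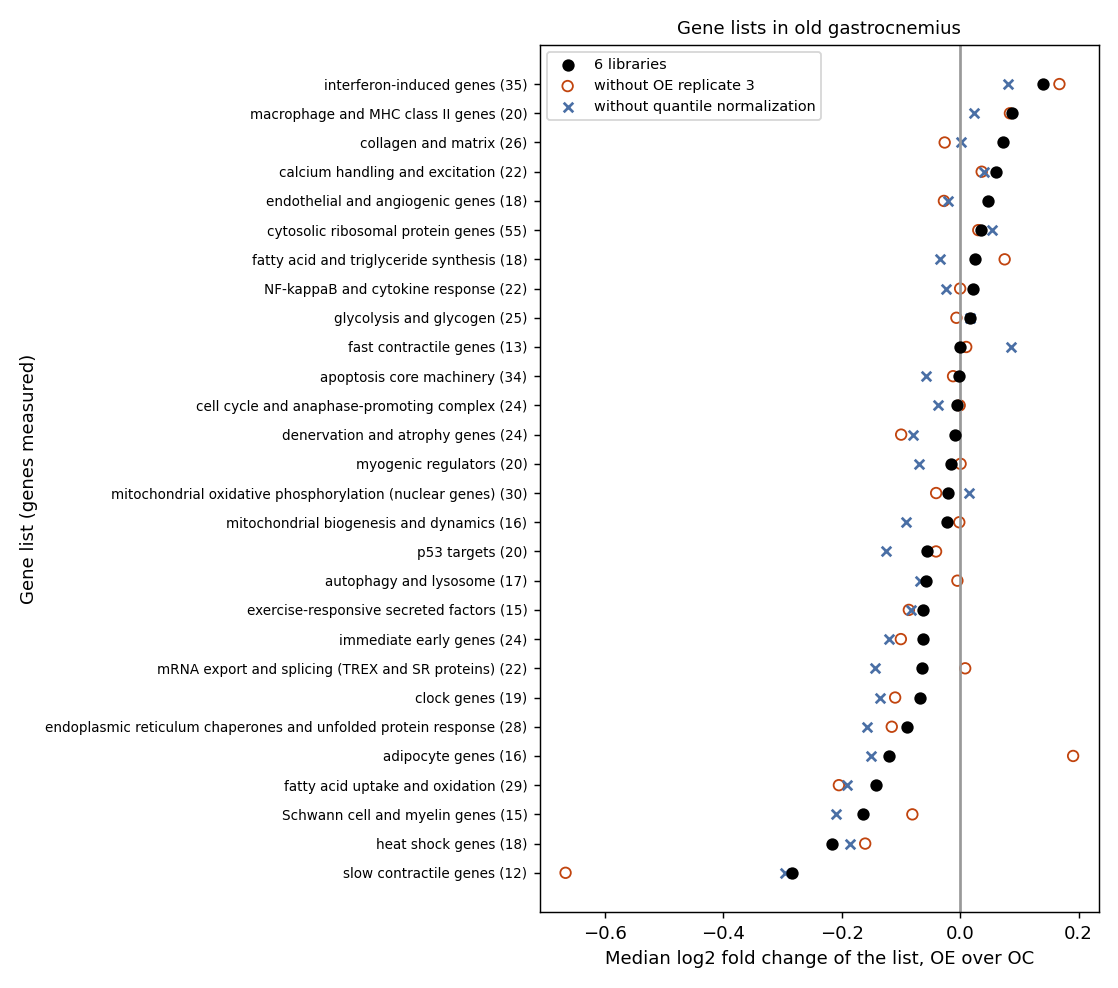
Median log2 fold change of OE over OC for each gene list, with the number of genes measured in parentheses, for the 6 libraries (filled), without OE replicate 3 (open) and without quantile normalization (crosses). The slow contractile median moves to -0.67 and the adipocyte median to 0.19 without OE replicate 3, while the endoplasmic reticulum, heat shock and interferon medians keep their side.

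Summed markers of the other tissues in the muscle overlapped between the groups. The summed FPKM of 6 adipocyte markers was 252, 475 and 192 in OE and 244, 408 and 265 in OC, that of 5 macrophage markers 25.2, 39.2 and 36.1 in OE and 29.4, 30.0 and 31.8 in OC, and that of 3 endothelial markers 48.2, 38.7 and 47.1 in OE and 39.3, 46.5 and 41.6 in OC. OE replicate 3 had the lowest adipocyte sum. The 4 Schwann cell markers summed to 31.7, 28 and 19.4 in OE and 29.1, 51.1 and 29.4 in OC, and 13 of 15 Schwann cell and myelin genes had negative values (median -0.16), with 0 past an unadjusted p of 0.05. The 4 fibroblast markers summed to 342, 356 and 321 in OE and 308, 374 and 379 in OC, and the 4 tendon markers to 51.6, 29.8 and 63.4 in OE and 45.3, 68.3 and 70.4 in OC. No list of non-muscle cells separated OE from OC by these sums. Of 26 collagen and matrix genes only Eln, elastin, was past an unadjusted p of 0.05, at 4.8, 4.35 and 4.43 FPKM in OE, against 3.40, 3.98 and 3.71 FPKM in OC (log2 fold change 0.31). This is 3.85% of the list, near the 3.41% of genes with a mean FPKM of at least 1 that were higher.

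The effect of training in old mice was then compared between GAS and SOL, with the difference of the log2 fold changes tested in a fit of all 24 libraries. The difference passed an adjusted limma p of 0.05 for 5 genes, 0.0266% of those tested. Cdc27 was the only one with a mean FPKM over 1, with a log2 fold change of -0.78 in GAS and 0.02 in SOL and a difference of -0.80 (SE 0.10, limma adjusted p = 0.0019). Of the others, 4930415O20Rik, Ppp1r36 and BC107364 were near 0 in every library, and Tgm5 had up to 1.24 FPKM in SOL OC. Each group had 3 mice and both muscles carry the same numbers, so GAS and SOL libraries of 1 number were taken as 1 mouse, and with the mouse as a block limma called 0 genes, with 483 differences positive and 290 negative at an unadjusted p under 0.05, and the adjusted p of Cdc27 was 0.215. Canx differed by -0.76 (adjusted p = 0.111) and Chtop by 2.14 (adjusted p = 0.245). Dido1, a chromatin-binding protein, differed by 0.68 and Fen1, a nuclease of DNA replication, by 0.40, both at an adjusted p of 0.517. In SOL OE/OC itself 1 gene passed an adjusted p of 0.05 and 28 were DEGs.

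The comparison with young mice asked whether GAS responded differently to training at the younger age. The difference between OE/OC and YE/YC passed an adjusted limma p of 0.05 for 1 gene, 0.00532% of those tested, which was Ppp1r36. Tead4, a transcription factor of muscle differentiation, differed by 0.75, Sult5a1 by 0.62, Eln by 0.82, Map2k6, a kinase of the p38 pathway, by -0.45, and Cdc27 by -0.62, each at an adjusted p of 0.501. For Eln and Tead4 the young mice had the opposite sign, with log2 fold changes of -0.51 and -0.56 in YE/YC, against 0.31 and 0.18 in OE/OC. In young GAS 3 genes passed an adjusted p of 0.05 and 39 were DEGs. Hba-a2 had a log2 fold change of -5.89 in young GAS too, with 0.153, 0.181 and 0.130 FPKM in YE and 89.1, 65.9 and 48.8 FPKM in YC. Hba-a1 went the other way there, by 3.42, with 65.7, 39.4 and 155 FPKM in YE and 1.51, 56.8 and 0.772 FPKM in YC. Summed over both copies, alpha-globin came to 86.8 ± 60.4 FPKM in YE and 87.6 ± 36.7 FPKM in YC (SD over 3 libraries each).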

How the data were processed

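RNA was sequenced from gastrocnemius and soleus of 12 mice, 24 libraries in 8 groups of 3. Reads were aligned to mm10 and quantified, and the submitters' processing notes name HISAT2 2.1.0 and StringTie 1.3.4d. The authors deposited FPKM per gene and quantile-normalized log2(FPKM + 1) values for 18795 genes. The normalization was recomputed over the 24 libraries to within 5e-09. Columns of soleus against gastrocnemius comparisons by the authors (group means, fold changes, test scores, p and adjusted p) were not used. Depth in reads is unknown, so the number of libraries limits the precision.

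The normalized log2 values of the 12 gastrocnemius libraries were fitted by group with limma 3.58.1 and an intensity trend (R 4.3.3), and OE was tested against OC with Benjamini-Hochberg adjustment over all genes. The difference between muscles used all 24 libraries. Fold changes are on the log2(FPKM + 1) scale, which understates low genes. Groups were called apart from the normalized values in counts and from FPKM for single genes. Of the gene IDs, 18758 matched the GRCm38.p6 annotation, and 22 symbols damaged by date conversion were restored from it. The 34 lists held 634 genes, and Ahsp, Mymk, Mymx and Hspb5 were not matched. Named were the 13 genes the study named for OE/OC, all genes past an adjusted p of 0.05, up to 10 non-overlapping DEGs per direction with a mean FPKM of at least 1, up to 4 genes with the smallest p per list and 5 per difference between effects, of which 1 gene is not reported here. Members and lists were chosen with earlier results of these data known. The fit was tested on simulated data.

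Alternatives were an equal-variance test, the 6 libraries alone, a pseudocount of 0.1, a filter (FPKM of at least 1 in 3 libraries), no or within-muscle quantile normalization, leaving out each library and a replicate block. List values without OE replicates 2 or 3 or without quantile normalization were added after seeing the data. Each mouse gave both muscles, and libraries with the same group and number were taken as 1 mouse. Deviations of the muscles of a mouse from their group means correlated at -0.04 to 0.12 in the old mice, 0.08 to 0.13 in YC and 0.22 to 0.36 in YE.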

Additional observations from a re-analysis of the deposited data

Results flagged for a closer look

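The response of old mice to training differed between the muscles for 5 genes by the test of the difference itself, given here as the log2 fold change of OE/OC in GAS minus that in SOL. With the mouse as a replicate block none of the 5 passed in limma, at adjusted p of 0.215 for Cdc27, 0.177 for Ppp1r36, 0.0781 for 4930415O20Rik, 0.215 for Tgm5 and 0.323 for BC107364, and the p-values below are without it. Cdc27 differed by -0.80 (limma adjusted p = 0.0019), with the low values in GAS OE. Ppp1r36 differed by -0.082 (adjusted p = 0.00026) and had the same difference of -0.082 between old and young GAS (adjusted p = 0.0368), from 3 OC values near 0.05 FPKM and 0 elsewhere. 4930415O20Rik differed by -0.17 (adjusted p = 0.00026), being at 0.163, 0.150 and 0.143 FPKM in SOL OE and listed at 0 in every other library. Tgm5, a transglutaminase, differed by 0.49 (adjusted p = 0.0277), with 0.468, 0.405 and 0.464 FPKM in SOL OE, against 0.868, 1.24 and 1.15 FPKM in SOL OC. BC107364 differed by 0.10 (adjusted p = 0.0391) and was listed at 0 in all 6 GAS libraries of old mice.

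For 2 genes the 3 OE and 3 OC values did not overlap in either muscle and had opposite orders. Chtop differed by 2.14 (adjusted p = 0.245) and Hbb-b1 by -9.78 (adjusted p = 0.582), neither past the threshold.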

How the results depend on the processing

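The 3 genes at an adjusted p under 0.05 became 0 with an equal-variance test, with the 6 libraries alone and with the replicate number as a block (388 higher and 374 lower at an unadjusted p under 0.05 in limma), and ranged from 5 to 13 when single libraries were left out. Hba-a2, Cdc27 and Ppp1r36 then had adjusted p of 0.464, 0.287 and 0.423 with the equal-variance test, 0.142 each with the 6 libraries and 0.354, 0.589 and 0.400 with the block. The 30 DEGs became 202 with a pseudocount of 0.1, 27 of them shared, and 28 to 104 without single libraries, most without OE replicate 1. The 5 differences between muscles became 1 with the filter on low FPKM and 0 with the mouse as a replicate block, and 3 to 9 without single libraries, fewest without GAS OE replicate 2, GAS OC replicate 5 or SOL OE replicate 2 and most without SOL OE replicate 1. The 1 difference between ages became 2 with a pseudocount of 0.1, 0 with the filter (234 positive and 115 negative at an unadjusted p under 0.05) and 0 with the block (334 and 297), and 0 to 9 without single libraries, 0 without GAS OE replicate 2 or GAS YE replicate 1. The globin sums kept their direction, at -1.41 to -0.37 for alpha-globin and -1.42 to -0.30 for beta-globin without single libraries. Many genes were named by their p or separation in this same comparison, which favours a kept direction, so the next count does not measure robustness. Of 96 named genes, 92 kept 1 direction under all alternatives in which they were fitted. The exceptions were Myh7 (0.073 with the block, -1.35 to 0.82 without single libraries), Tnnc1 (-1.45 to 0.79), Sap18 (-0.15, but 0.38 with the block and -0.67 to 0.36) and Sap18b (0.09, but -1.22 with the block and -1.19 to 1.37). Replicate numbers of different groups mark no shared animal or batch. The causes were not tested. Depth in reads is unknown, and values near 0 carry no counting error.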

Other observations

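Vessel and macrophage genes had small differences that depended on the library and the normalization. Of 18 endothelial and angiogenic genes, 11 had positive log2 fold changes, and Vwf, which tethers platelets, at 6.12, 7.17 and 6.34 FPKM in OE and 6.09, 5.87 and 5.63 FPKM in OC, and Cldn5, a tight junction protein, at 4.82, 4.13 and 5.61 FPKM in OE and 4.10, 3.98 and 4.00 FPKM in OC, were higher at an unadjusted p under 0.05 (0.20 and 0.29), which is 11.1% of the list, against 3.41% of genes with a mean FPKM of at least 1. The list median of 0.05 was -0.03 without OE replicate 3 and -0.02 without quantile normalization, with 0 genes past that threshold in either setting. Of 20 macrophage and MHC class II genes, 16 were positive (median 0.09), and Cd163, a scavenger receptor for haemoglobin, was the 1 past that threshold (5% of the list, against 3.41%). Cd163 was at 3.46, 5.41 and 4.13 FPKM in OE and 3.46, 2.96 and 3.62 FPKM in OC (0.36). The median was 0.0003 without OE replicate 2 and 0.02 without quantile normalization, where 12 of 20 were positive and 0 passed. Vwf, Cldn5 and Cd163 all had an adjusted p of 0.939. The 16 adipocyte genes had 11 negative values and a median of -0.12, and 0 passed.

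In the lists that follow, counts at an unadjusted p under 0.05 stand against 3.41% of genes with a mean FPKM of at least 1 that were higher and 1.56% that were lower. Glycolysis and glycogen genes had 14 positive and 11 negative values, with Pfkfb3, which makes an activator of glycolysis, at 25.1, 18.4 and 19.4 FPKM in OE, against 39.9, 27.0 and 34.3 FPKM in OC (-0.56, SE 0.31). The 17 autophagy and lysosome genes had 1 higher (Ulk1) and 2 lower (Atg5 and Ctsd) (5.88% and 11.8%), and the 22 genes of NF-kappaB and cytokine response 1 higher (Nfkbiz, 4.55%). The 22 calcium handling genes had 1 lower (Rrad, 4.55%), the 18 genes of fatty acid and triglyceride synthesis 1 higher (Lpin1, 5.56%), and the 16 of mitochondrial biogenesis and dynamics 0. The 9 erythroid genes other than globin had 1 higher (Klf1, 11.1%), but only 1 of the 9 had a mean FPKM of at least 1. Klf1 was near 0, at 0.0872, 0.0226 and 0.133 FPKM in OE and 0, 0.0263 and 0 FPKM in OC, overlapping. Without OE replicate 3 or without quantile normalization 0 erythroid genes passed. The 13 genes named by the study, which it chose on these same libraries, had 5 higher and 6 lower and are not independent evidence of a direction.

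In other families of gene copies, whose sequences were not compared, 1 copy also held most of the signal of a library. Sap18b was at 2.77, 59.3 and 53.2 FPKM in OE and 51.6, 59.4 and 2.69 FPKM in OC, while Sap18, of a histone deacetylase complex, was at 14.5, 4.22 and 3.34 FPKM in OE and 5.62, 3.95 and 16.4 FPKM in OC. The low Sap18b libraries were thus the high Sap18 libraries, in both groups. The pseudogene Atp6v0c-ps2 was at 119, 101 and 116 FPKM in OE and 103, 105 and 104 FPKM in OC, and Atp6v0c, a subunit of the vacuolar proton pump, at 4.09, 3.90 and 3.66 FPKM in OE and 3.71, 3.15 and 2.81 FPKM in OC. Atp6v0c-ps2 held over 90% of its pair in 21 of 24 libraries. How reads were divided between these copies was not tested.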
